A study of Homo sapiens with 12 samples.

Results

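The genes that cut, carry and load peptides for MHC class I were measured on 12 Affymetrix U133 Plus arrays of human cell lines labelled as colorectal cancer. The set has 10 genes, listed by symbol and chosen with earlier results of these data known. It holds the immunoproteasome subunits PSMB8, PSMB9 and PSMB10, the peptide transporter TAP1 and TAP2 and the loading chaperone TAPBP. The trimming enzymes ERAP1 and ERAP2, the light chain B2M and the regulator NLRC5 complete it. These 10 are among the 19774 genes on the array that have a probe set naming them alone, and they have 26 such probe sets. The brightest of a gene's probe sets, by its mean of the 12 arrays, was used, and the others are given beside it. Annotation places TAP1, TAP2, TAPBP, PSMB8 and PSMB9 on chromosome 6, B2M on chromosome 15, ERAP1 and ERAP2 on chromosome 5, and PSMB10 and NLRC5 on chromosome 16.

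The study put the miR-200 microRNAs, made from a pair of genomic clusters, back into 3 established lines whose own miR-200 loci are labelled as methylated: HUTU-80, MDST8 and NCI-H716. Cells received lentivirus carrying the miR-200c141 cluster (miR-200c and miR-141) or the miR-200ba429 cluster (miR-200a, miR-200b, miR-429). They were sorted for green fluorescence 48 hours later. Some of the miR-200ba429 cells were given the other virus 24 hours after the sort and so carry both clusters. In the results for both clusters, carrying both and receiving an additional virus cannot be told apart. RNA was taken on day 7. The control group has 3 arrays, 1 from each line, miR-200c141 has 4 (2 of them from HUTU-80, with titles ending in 1:3 and 1:5), miR-200ba429 has 3, and both clusters has 2, from MDST8 and NCI-H716. The sources used here give neither the meaning of these ratios nor the treatment of the control cells. SW620, which the protocol also names, was not analysed here. The HUTU-80 pair was averaged, which leaves 11 samples. Every other group of a line is a single array and the labels do not name separate cultures, so p-values measure the spread between these samples, which may be technical.

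Values are log2 intensities, and the number of arrays limits their precision. The highest of 23 nonspecific control probe sets, 5.43, served as the background level. ZEB1, a well-known repressed target of the family, was below its control on 9 of 9 arrays with a construct, by −2.24 to −0.13. Of 11 colon epithelial markers, 1 lay above background on the control array of HUTU-80, 1 on that of MDST8 and 9 on that of NCI-H716, so HUTU-80 and MDST8 lacked most of the markers of their labelled origin. KRT18 was the 1 marker of the 11 to rise past the test with both clusters (1.48 ± 0.23, adjusted p = 0.00659), and 10 of the 11 had a positive fitted change (median 0.68). The summed level of the list ran from 44.5 to 57.6 in HUTU-80, 45.3 to 48.2 in MDST8 and 82.8 to 101.4 in NCI-H716. No leukocyte marker of 10 was above background in HUTU-80 or NCI-H716 and 1, LCP1, was in MDST8. The summed level of the leukocyte list ran from 32.5 to 35.7 over all arrays, with PTPRC, the defining marker, below background on each. No endothelial marker of 4 was above background. Fibroblast markers, which cancer cells can also express, were above it for 5 (HUTU-80), 3 (MDST8) and 4 (NCI-H716) of 7 genes, with summed levels of 46.4 to 50.9, 36.2 to 38.6 and 43.3 to 45.5. These lists differ between lines together with the results below, and their part in them was not tested.

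MHC class I molecules show fragments of the cell's own proteins to CD8 T cells. Proteasomes cut the proteins, the TAP transporter moves the peptides into the endoplasmic reticulum, aminopeptidases trim them there, and tapasin holds the transporter next to class I molecules until a peptide binds. Interferon-gamma and the regulator NLRC5 are known to raise many of these genes together, and tumours often lose part of the pathway. A microRNA recognises its targets mainly through the seed, bases 2 to 8, so microRNAs of the same seed share many targets.

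The 5 mature microRNAs of the constructs are shown because they are the agents compared. They fall into 2 seed groups, and each cluster supplies both. Sequences are those of RefSeq on GRCh38.p14, 5′ to 3′, with the seed in capitals. The first group shares AAUACUG.
hsa-miR-200c-3p: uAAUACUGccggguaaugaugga
hsa-miR-200b-3p: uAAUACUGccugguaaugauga
hsa-miR-429: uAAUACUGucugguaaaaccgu
The second group shares AACACUG.
hsa-miR-141-3p: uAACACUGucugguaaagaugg
hsa-miR-200a-3p: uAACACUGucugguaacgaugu
The miR-200c141 pair lies on chromosome 12 (hsa-miR-200c-3p at chr12:6963742-6963764 and hsa-miR-141-3p at chr12:6964155-6964176, plus strand), and the miR-200ba429 trio on chromosome 1 (hsa-miR-200b-3p at chr1:1167160-1167181, hsa-miR-200a-3p at chr1:1167916-1167937 and hsa-miR-429 at chr1:1169055-1169076, plus strand). Target sites in the 10 genes were not analysed here.

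The largest difference between lines was that of PSMB8, at least 11.8-fold, whereas no fitted change with a construct exceeded 0.89 (log2) by the probe sets used. HUTU-80 showed no signal above background for PSMB8, PSMB9, ERAP2 and NLRC5, while TAP1, TAP2, TAPBP, PSMB10, ERAP1 and B2M were above background on all 12 arrays. With both clusters 1 of 10 genes, ERAP1, rose past the test, where 6.14% of all genes passed. With a single cluster none of the 10 passed, and 0 of all genes did. In these bulk samples fewer cells that express a gene and less RNA in each cell cannot be told apart.

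**Figure D1:**
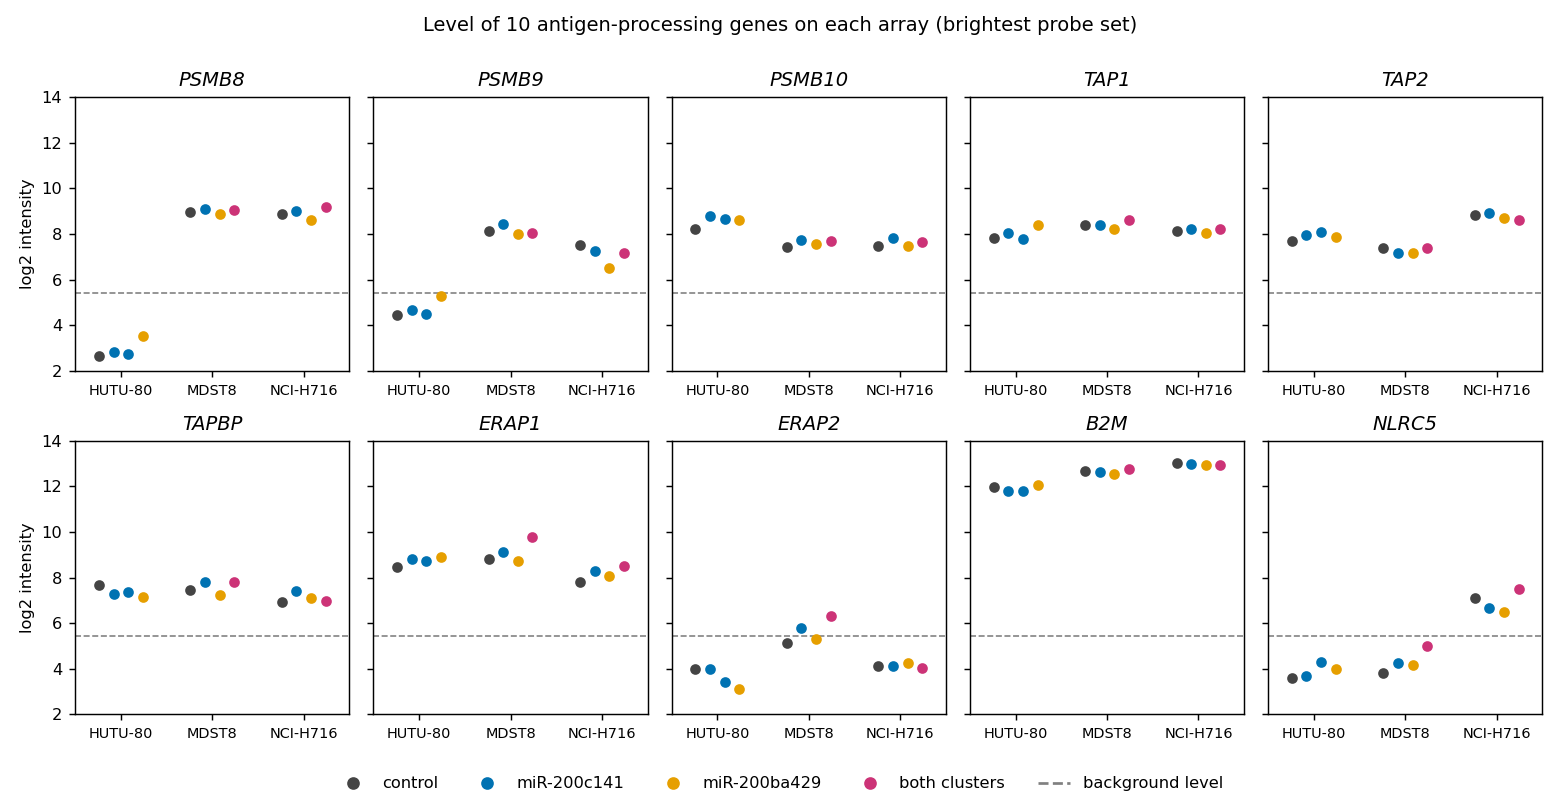
Log2 intensity of each gene (vertical axis) on each of the 12 arrays, by cell line (horizontal axis), with points coloured by construct and the dashed line at the background level of 5.43. PSMB8 and PSMB9 lie below the line in HUTU-80 and above it in MDST8 and NCI-H716, and NLRC5 lies above it in NCI-H716.

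PSMB8, which takes the place of the catalytic subunit PSMB5 when the immunoproteasome forms, stood at 2.67 in the HUTU-80 control, 2.82 and 2.75 with miR-200c141 (1:3 and 1:5) and 3.53 with miR-200ba429. In MDST8 it stood at 8.97 in the control, 9.08 with miR-200c141, 8.86 with miR-200ba429 and 9.06 with both clusters, and in NCI-H716 at 8.89, 9.0, 8.63 and 9.18 in the same order. HUTU-80 arrays were all below background and did not overlap with the other lines. The gene was at least 11.8-fold higher in MDST8 than in HUTU-80, and at least 11.3-fold higher in NCI-H716. These bounds set the mean of the brighter line against the background level. The adjusted p from limma was 1.36e-09 and 1.11e-09, with measured means of 8.99 ± 0.10 (SD, n = 4) in MDST8, 8.93 ± 0.23 (SD, n = 4) in NCI-H716 and 3.00 ± 0.47 (SD, n = 3) in HUTU-80. MDST8 and NCI-H716 overlapped, with a fitted difference of −0.07 ± 0.19 (SE) and a 95% interval of −0.48 to 0.34.

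PSMB9, the counterpart of PSMB6, read 4.45, 4.67, 4.50 and 5.28 on the HUTU-80 arrays (control, miR-200c141 1:3 and 1:5, miR-200ba429). It read 8.13, 8.44, 8.02 and 8.04 in MDST8 and 7.52, 7.27, 6.52 and 7.16 in NCI-H716 (control, miR-200c141, miR-200ba429, both clusters). All 4 HUTU-80 values were below background and every value of NCI-H716 was below every value of MDST8. PSMB9 was at least 6.63-fold higher in MDST8 and at least 3.22-fold higher in NCI-H716 than in HUTU-80 (limma, adjusted p = 1.27e-06 and 2.33e-05). NCI-H716 was lower than MDST8 by −1.04 ± 0.25 (SE, adjusted p = 0.00368).

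PSMB10, the counterpart of PSMB7, followed another order. HUTU-80 gave 8.23, 8.80, 8.68 and 8.61, MDST8 7.41, 7.76, 7.55 and 7.69, and NCI-H716 7.47, 7.85, 7.47 and 7.65, with constructs in the orders above, which hold for the later genes too. HUTU-80 lay above both other lines without overlap, by fitted differences of −0.95 ± 0.12 for MDST8 (adjusted p = 4.28e-05) and −0.94 ± 0.12 for NCI-H716 (adjusted p = 3.95e-05). MDST8 and NCI-H716 did not differ beyond their spread (0.01 ± 0.11).

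The 14 constitutive subunits on the related list were above background on every array in all lines. PSMB5, the subunit that PSMB8 replaces, ran from 10.92 to 11.19 in HUTU-80, 10.14 to 10.24 in MDST8 and 10.72 to 10.84 in NCI-H716. PSMB6 ran from 11.36 to 11.45, 10.86 to 10.94 and 10.97 to 11.10, and PSMB7 from 11.62 to 11.83, 11.75 to 11.88 and 10.59 to 10.79. For PSMB5 the fitted difference of MDST8 from HUTU-80 was −0.77 ± 0.07 (adjusted p = 2.96e-06). The PA28 activator genes PSME1 and PSME2 were also above background in HUTU-80. Of the 14 constitutive genes, 3 were higher and 9 lower in MDST8 than in HUTU-80 (median −0.29, all genes −0.04), where 43.3% of all genes differed, and 4 higher and 3 lower in NCI-H716 (median −0.01, all genes −0.03), where 45.6% did. In HUTU-80, without PSMB8 and PSMB9 signal, PSMB5 and PSMB6, the subunits those would replace, were thus well above background, as was PSMB7 beside PSMB10.

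**Figure D2:**
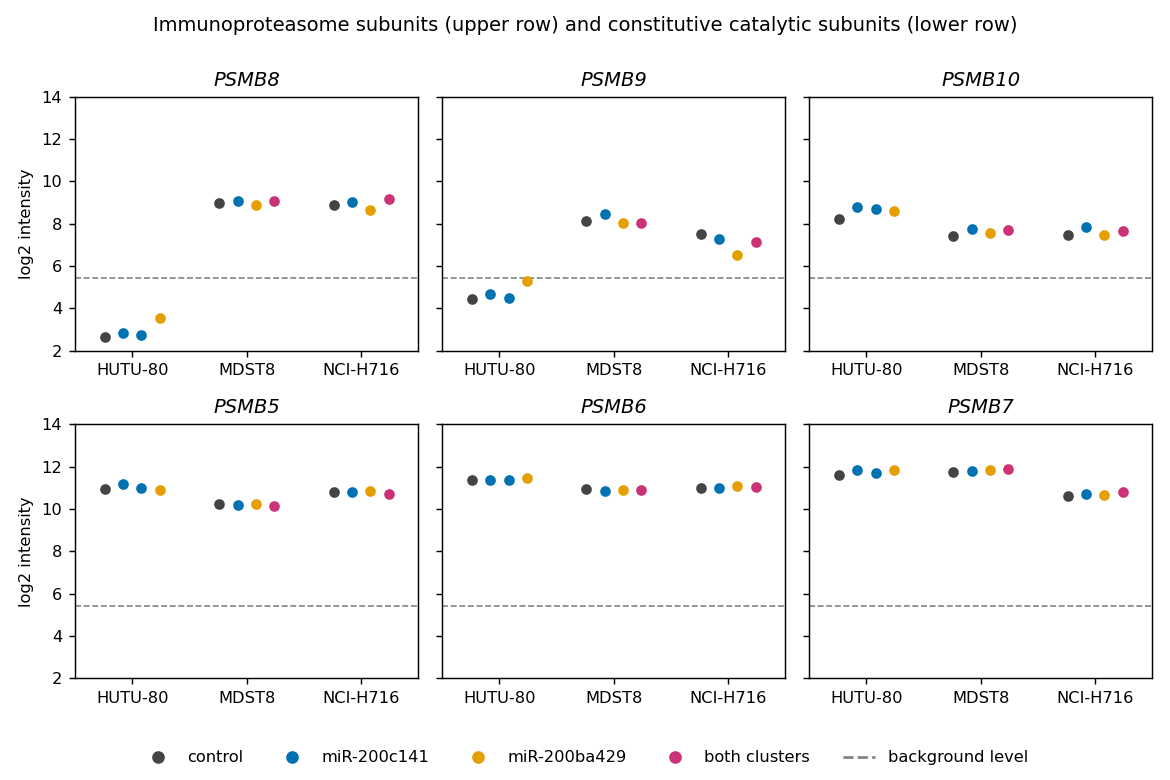
Log2 intensity (vertical axis) of 3 immunoproteasome subunits and, below each, the constitutive catalytic subunit it replaces, on 12 arrays by cell line, coloured by construct, with the background level dashed. PSMB8 and PSMB9 are below background in HUTU-80, where PSMB5, PSMB6 and PSMB7 all lie between 10.92 and 11.83.

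TAP1, which pairs with TAP2 to form the peptide transporter, was the member with the smallest differences between lines. HUTU-80 arrays gave 7.84, 8.07, 7.80 and 8.39, MDST8 8.39, 8.40, 8.23 and 8.62, and NCI-H716 8.15, 8.20, 8.05 and 8.24. The lines overlapped, and no line comparison passed the test (MDST8 against HUTU-80 0.31 ± 0.15, adjusted p = 0.120). Without the HUTU-80 miR-200ba429 array that difference was 0.53 (adjusted p = 0.00790). After each array was centred on its own median it was −0.03. A probe set shared by TAP1 and the antisense gene PSMB8-AS1 was below background on every array, at 2.85 to 3.44.

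TAP1 and PSMB9 are neighbours on chromosome 6, transcribed away from each other from starts 488 bases apart, and their upstream windows are shown because the pair parted in HUTU-80. There TAP1 lay between 7.80 and 8.39 and PSMB9 at or below 5.28. Each window is the 250 bases before a RefSeq start on GRCh38.p14, read 5′ to 3′ on the gene's strand, with matches to the searched motifs in capitals. The TAP1 window is chr6:32853705-32853954 on the minus strand, the PSMB9 window chr6:32853942-32854191 on the plus strand.
TAP1: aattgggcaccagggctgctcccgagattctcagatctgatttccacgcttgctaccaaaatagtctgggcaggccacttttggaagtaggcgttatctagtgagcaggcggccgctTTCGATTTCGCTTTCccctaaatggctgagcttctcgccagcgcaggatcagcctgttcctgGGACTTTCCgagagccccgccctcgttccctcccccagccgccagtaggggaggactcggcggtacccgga
PSMB9: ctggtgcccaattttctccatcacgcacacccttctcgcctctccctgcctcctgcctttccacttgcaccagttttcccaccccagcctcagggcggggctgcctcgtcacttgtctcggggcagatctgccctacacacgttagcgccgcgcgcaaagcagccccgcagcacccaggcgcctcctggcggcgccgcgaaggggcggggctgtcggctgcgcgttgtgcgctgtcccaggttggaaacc
The motifs searched on both strands were GAAANNGAA (the interferon-stimulated response element type), TTCNNNGAA (the gamma-activated site type) and GGANTTTCC (the NF-kB type). They occur in 6.88%, 6.57% and 1.45% of the 35116 windows of this length in the RefSeq table. The TAP1 window holds GAAANNGAA in 2 overlapping matches beginning 133 and 127 bases before the start, and GGANTTTCC once, 71 bases before it. The PSMB9 window holds none of the 3. The TAP1 matches lie between the starts of the pair, so they are upstream of PSMB9 as well, but beyond its window. A match is a string of letters and no measure of binding, and none of these factors was measured.

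TAP2, the partner subunit, depended on the probe set. The one used, the brighter, gave 7.70, 7.95, 8.09 and 7.87 in HUTU-80, 7.41, 7.17, 7.17 and 7.39 in MDST8, and 8.86, 8.94, 8.69 and 8.63 in NCI-H716. The lines did not overlap: NCI-H716 was highest (0.93 ± 0.14 over HUTU-80, adjusted p = 0.000153) and MDST8 lowest (−0.57 ± 0.14 from HUTU-80, adjusted p = 0.00523, or −0.90 after centring). Another probe set, dimmer on every array, gave 7.24, 6.52, 6.79 and 6.80 in HUTU-80, 4.64, 4.42, 4.22 and 3.93 in MDST8, and 6.81, 6.11, 6.09 and 5.37 in NCI-H716. Fitted over all 40920 single-gene probe sets, it was lower in NCI-H716 than in HUTU-80 by −0.62 ± 0.19 (adjusted p = 0.0168), the opposite of the brighter one. MDST8, below background there, was lowest on both. The mean of the 4 TAP2 probe sets put NCI-H716 at 0.04 over HUTU-80 (adjusted p = 0.823) and MDST8 at −0.89 from it, with the remaining pair below background on all arrays.

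With the constructs the pair of TAP2 probe sets parted as well. The dimmer one was below its control on each of the 9 arrays, by −1.44 to −0.23. With both clusters it fell by −1.08 ± 0.22 (SE, limma, adjusted p = 0.0167 over all probe sets). That fall ran from 4.64 to 3.93 in MDST8, both below background, and from 6.81 to 5.37 in NCI-H716, ending below background. The brighter one had −0.04 ± 0.16 with both clusters, changes of both signs, and did not pass. Of the 26 probe sets of the 10 genes, 2 were lower on all 9 arrays (the other, of ERAP1, below background throughout), against 3.27% of all probe sets. With both clusters 3 of the 26 passed, against 5.16% of all: this TAP2 probe set, the ERAP1 probe set used, and 1 of ERAP2 that stayed below background on every array (2.65 to 4.82). Which transcripts the TAP2 probe sets read was not tested.

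**Figure D3:**
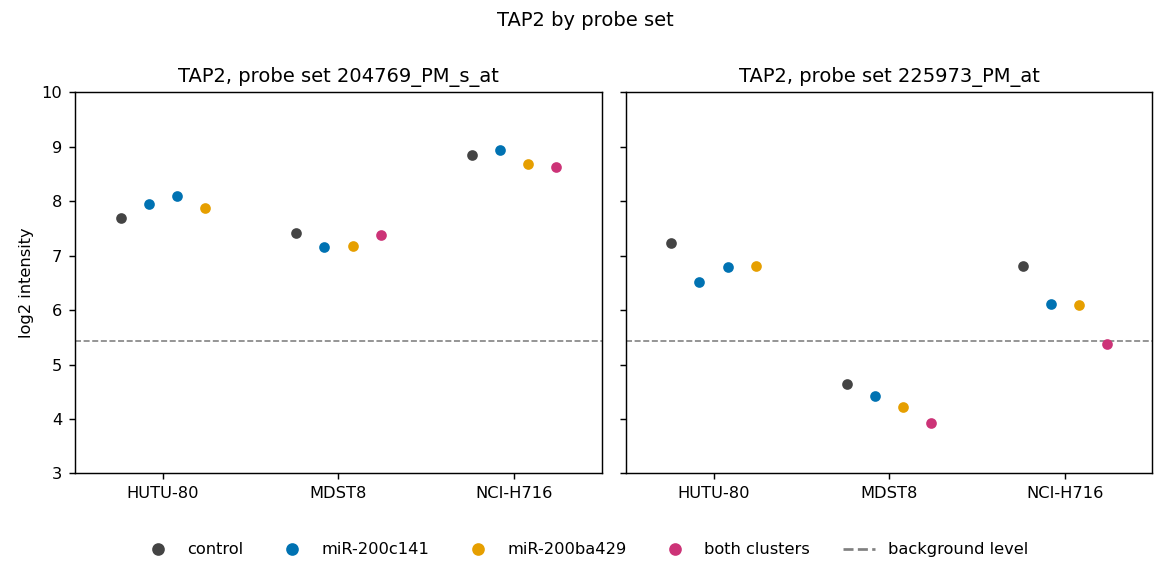
Log2 intensity (vertical axis) of both TAP2 probe sets with signal above background, on 12 arrays by cell line and coloured by construct, with the background level dashed. In the right panel each array with a construct lies below the control of its line, whereas in the left panel the HUTU-80 arrays with a construct lie above it.

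TAPBP, tapasin, was above background on all arrays, at 7.67, 7.28, 7.37 and 7.16 in HUTU-80, 7.46, 7.80, 7.23 and 7.79 in MDST8 and 6.93, 7.39, 7.09 and 6.95 in NCI-H716. The lines overlapped. NCI-H716 was lower than MDST8 by −0.48 ± 0.16 (adjusted p = 0.0261), a call lost in 7 of 19 alternatives (adjusted p from 0.0176 to 0.113 over all). It was lost without the MDST8 miR-200c141 array (−0.44, adjusted p = 0.0828), the NCI-H716 control (−0.40, 0.0919), the MDST8 array with both clusters (−0.36, 0.113) or that of NCI-H716 (−0.36, 0.110). After centring, NCI-H716 was lower than HUTU-80 (−0.49, adjusted p = 0.0378) and not past the threshold against MDST8 (−0.32, adjusted p = 0.102). The other TAPBP probe sets, 2 in number, were below background.

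ERAP1, the aminopeptidase that trims peptides to class I length, was the only member to pass the test with a construct. Its level was 8.46 in the HUTU-80 control, 8.80 and 8.70 with miR-200c141, and 8.90 with miR-200ba429. MDST8 gave 8.83 in the control, 9.14 with miR-200c141, 8.71 with miR-200ba429 and 9.79 with both clusters, and NCI-H716 gave 7.79, 8.29, 8.05 and 8.50. The array with both clusters was the highest of its line in MDST8 and in NCI-H716, by 0.96 and 0.71 over the control. Of the 9 arrays with a construct, 8 were above their control, the exception being MDST8 with miR-200ba429. The fitted change with both clusters was 0.87 ± 0.16 (SE), 1.82-fold with a 95% interval of 1.42 to 2.34, and passed the test over all genes (limma, adjusted p = 0.0142). It was 0.37 ± 0.14 with miR-200c141 (adjusted p = 0.713) and 0.19 ± 0.14 with miR-200ba429 (adjusted p = 0.844), neither past the threshold.

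The colon epithelial markers moved on the same arrays: with both clusters 11 of 11 were above the control in NCI-H716 (median 1.37) and 7 of 11 in MDST8 (median 0.10), and their part in the ERAP1 result was not tested. The ERAP1 call rests on few arrays, and the cells with both clusters also received an additional virus, which cannot be told apart from the clusters. Over 23 alternatives the adjusted p ran from 0.00780 to 0.999. The call was lost without the NCI-H716 control (0.86, adjusted p = 0.0580), without the MDST8 array with both clusters (0.65, 0.116), without all of HUTU-80 (0.84, 0.0551) or MDST8 (0.71, 0.0553), in a fit of the compared groups alone (0.84, 0.184) and with no term for line (0.79, 0.999). The other 5 ERAP1 probe sets were below background on all arrays, and a mean over all 6 gave −0.0052 (adjusted p = 0.991). Between lines ERAP1 was lowest in NCI-H716, by −0.72 ± 0.14 from HUTU-80 (adjusted p = 0.00108) and −0.96 ± 0.12 from MDST8 (adjusted p = 3.78e-05), and both calls were lost with the mean of probe sets (−0.18 and −0.13). MDST8 and HUTU-80 overlapped (0.25, adjusted p = 0.186), but without the MDST8 array with miR-200ba429 that difference passed (0.39, adjusted p = 0.0326).

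ERAP2, the partner aminopeptidase, was near or below background everywhere. HUTU-80 ran from 3.10 to 4.01 and NCI-H716 from 4.05 to 4.26, while MDST8 gave 5.13 in the control, 5.79 with miR-200c141, 5.32 with miR-200ba429 and 6.30 with both clusters. MDST8 was the highest line with no overlap, and 2 of its 4 arrays were above background. That allows at least 1.15-fold over either other line (limma, adjusted p = 0.000135 against HUTU-80 and 0.000305 against NCI-H716). The 4 other ERAP2 probe sets stayed below background, except that 1 read 5.80 in MDST8 with both clusters. With both clusters the fitted change, which draws on all samples, was 0.37 ± 0.33 (limma, adjusted p = 0.568). The arrays with both clusters differed from their controls by 1.18 in MDST8 and −0.07 in NCI-H716.

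B2M, the light chain that every class I molecule needs, held the narrowest range within lines. On each array only 0.12% to 0.88% of probe sets were brighter, and whether signal so near the top narrows the range was not tested. The probe set used gave 11.96, 11.78, 11.80 and 12.06 in HUTU-80, 12.65, 12.63, 12.55 and 12.76 in MDST8, and 13.0, 12.98, 12.95 and 12.92 in NCI-H716. The lines did not overlap: NCI-H716 exceeded HUTU-80 by 1.02 ± 0.07 (2.02-fold, adjusted p = 1.8e-07) and MDST8 by 0.32 ± 0.06 (1.25-fold, adjusted p = 0.000822). MDST8 exceeded HUTU-80 by 0.70 ± 0.07 (1.63-fold, adjusted p = 5.14e-06), a difference that was 0.37 after centring. With the mean of the 3 probe sets the difference of NCI-H716 from MDST8 was 1.02 and that of MDST8 from HUTU-80 0.36. A second bright probe set gave the same order, from 11.61 to 12.88. The last of the 3 had signal above background in NCI-H716 alone, from 5.54 to 6.95 in NCI-H716. By the probe set used, no construct passed the test for B2M: the change was −0.07 ± 0.07 with miR-200c141, −0.02 ± 0.07 with miR-200ba429 and 0.02 ± 0.08 with both clusters. The 95% intervals ran from −0.22 to 0.08, −0.17 to 0.14 and −0.16 to 0.19. The dimmest B2M probe set, above background in NCI-H716 alone, read 5.68 in that control and 6.95 with both clusters, with a fitted change of 1.20 ± 0.34 that did not pass over all probe sets (adjusted p = 0.0623).

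The B2M window is shown because it holds the same motif types as that of TAP1 in a gene that was bright in every line. It is chr15:44711267-44711516, plus strand, of the same build.
B2M: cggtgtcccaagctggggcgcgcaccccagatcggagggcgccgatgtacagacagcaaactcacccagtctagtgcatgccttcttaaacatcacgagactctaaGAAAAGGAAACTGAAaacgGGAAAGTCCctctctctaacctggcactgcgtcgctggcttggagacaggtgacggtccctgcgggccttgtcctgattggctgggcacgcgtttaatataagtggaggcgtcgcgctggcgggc
GAAANNGAA begins 144 and 138 bases before the start, the matches overlapping, and GGANTTTCC, on the other strand, 125 bases before it. Of the 13 windows of the 9 members in the table, 6 held GAAANNGAA (1 each of TAP1, TAP2, TAPBP, ERAP2, PSMB10 and B2M), 2 held TTCNNNGAA (PSMB8 and a second TAP1 start) and 2 held GGANTTTCC (TAP1 and B2M). Over all windows the shares were 6.88%, 6.57% and 1.45%. The motifs were shortened after the windows had been searched, so these counts are no test of enrichment. Both PSMB8 windows, both ERAP1 windows and that of PSMB9 lacked GAAANNGAA. Of the 4 genes without signal in HUTU-80, ERAP2 has a window with it. PSMB8 and PSMB9 have no window with it, although the TAP1 matches lie upstream of PSMB9 too, beyond its window. ERAP1, which also has no window with it, was above background on all 12 arrays. The part of these matches in the levels of the genes was not tested. The window of NLRC5 was not analysed here.

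NLRC5, the transactivator of class I genes, was above background in NCI-H716 only, at 7.10 in the control, 6.68 with miR-200c141, 6.51 with miR-200ba429 and 7.48 with both clusters. HUTU-80 ran from 3.58 to 4.28 and MDST8 from 3.81 in the control to 5.00 with both clusters. NCI-H716 did not overlap with either line and was at least 2.85-fold higher than each (limma, adjusted p = 7.83e-07 against HUTU-80 and 5.27e-07 against MDST8). The array with both clusters exceeded its control by 1.20 in MDST8, both values being below background, and by 0.38 in NCI-H716. The fitted change with both clusters, which draws on all samples, was 0.89 ± 0.27 (SE, limma, adjusted p = 0.0812). It did not pass, but without the NCI-H716 control array it did (1.23, adjusted p = 0.0387). PSMB8 and PSMB9 were far above background in MDST8, where NLRC5 was not, and TAP1, TAP2 and B2M were above it in HUTU-80. The part of NLRC5 in the levels of these genes was not tested.

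Read together, 7 of the 10 genes differed between NCI-H716 and HUTU-80 (5 higher and 2 lower in NCI-H716), where 45.6% of all genes did. Between MDST8 and HUTU-80 6 differed, 4 higher and 2 lower in MDST8, against 43.3% of all genes, and between NCI-H716 and MDST8 7 differed, 3 higher and 4 lower in NCI-H716, against 51.7%. By single probe sets 11, 13 and 15 of 26 passed, against 39.8%, 37.5% and 45.7%. Centring each array on its median changed the balance of all calls from 4052 higher and 4962 lower to 3268 and 6930 for NCI-H716 against HUTU-80, from 4046 and 4523 to 2766 and 10199 for MDST8 against HUTU-80, and from 5008 and 5217 to 6811 and 4318 for NCI-H716 against MDST8. It moved the median of all genes from −0.03 to −0.21, −0.04 to −0.37 and 0.01 to 0.16. No called difference of a member changed sign with it.

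Of the heavy chains that B2M pairs with, HLA-B gave 8.62 in the control of HUTU-80, 9.61 in that of MDST8 and 11.42 in that of NCI-H716, and was higher in NCI-H716 than in HUTU-80 by 2.46 ± 0.18 (adjusted p = 4.67e-07). HLA-C was higher there by 2.33 ± 0.14 and HLA-E by 1.36 ± 0.11. Of 6 measured class I chains, 5 were higher and 1 lower in NCI-H716 than in HUTU-80 (median 2.39), where 45.6% of all genes differed, and 4 were higher and none lower in MDST8 (median 0.93), where 43.3% did. Probes for these near-identical genes can read each other's transcripts, so the chains are not independent. The class II genes HLA-DPA1 and HLA-DPB1 were above background in MDST8 alone (6.35 to 7.18 and 7.24 to 7.80), while CIITA, the class II transactivator, was below background on all arrays.

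The comparisons with constructs share control arrays, 1 for each line. Across any construct 0 of 10 genes passed, against 0% of all genes, and the same counts held for miR-200c141, for miR-200ba429 and for the difference of the clusters. At an unadjusted p under 0.05 limma had 1851, 1302, 1214 and 705 of 19774 genes in those comparisons, in that order. With both clusters 1 of 10 passed, ERAP1, where 6.14% of all genes did. The change differed between lines for none of the 10 (moderated F from 0.04 to 2.52, adjusted p = 0.9998) and for 0.00506% of all genes, with 987 at an unadjusted p under 0.05.

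**Figure D4:**
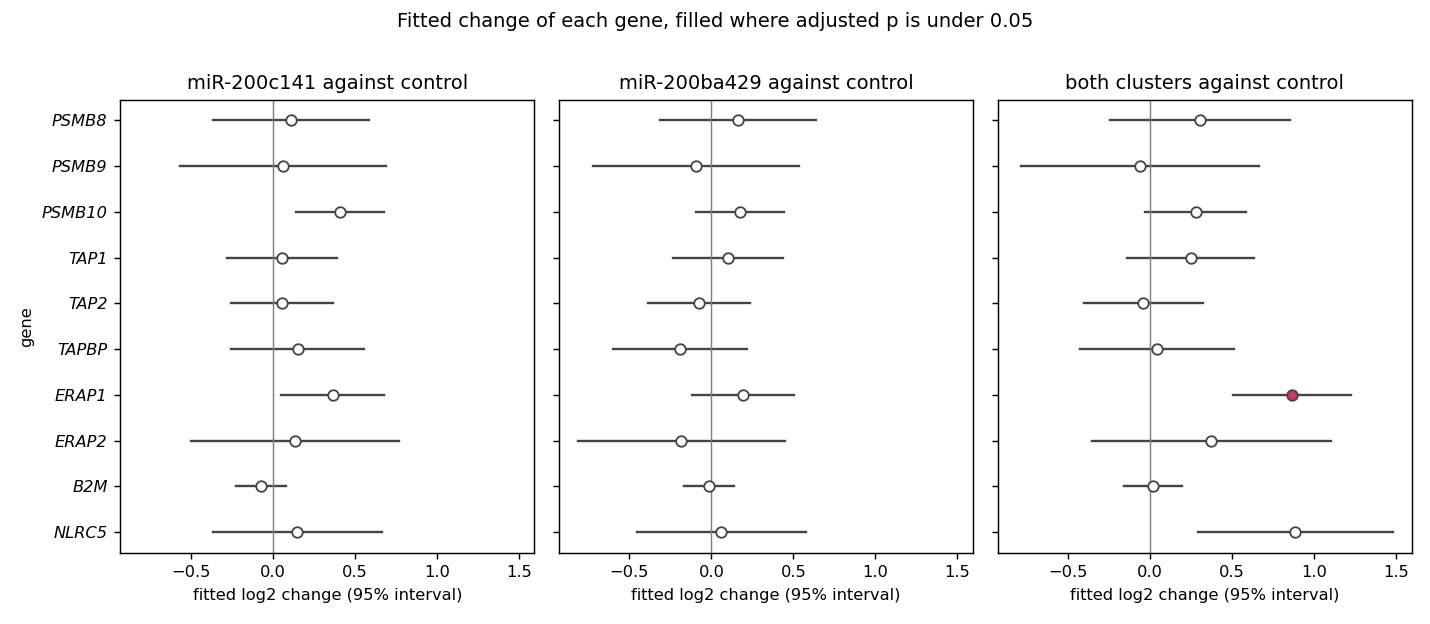
Fitted log2 change from control (horizontal axis) of each gene for miR-200c141, miR-200ba429 and both clusters, with 95% intervals as bars and filled points where the adjusted p is under 0.05. ERAP1 with both clusters, at 0.87, is the filled point, and B2M has the narrowest intervals.

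Among the genes that did not pass, PSMB10 had the steadiest direction. Each of the 9 arrays with a construct exceeded its control, by 0.01 to 0.57, which holds for 1 of 10 members and 3.41% of all genes. Its fitted change was 0.41 ± 0.12 with miR-200c141 (adjusted p = 0.553), 0.18 ± 0.12 with miR-200ba429 (0.828) and 0.28 ± 0.14 with both clusters (0.274). TAP1 changed by 0.25 ± 0.18 with both clusters, PSMB8 by 0.31 ± 0.25, TAPBP by 0.04 ± 0.21 and PSMB9 by −0.06 ± 0.33, none past the threshold. The median over the 10 genes was 0.12 with miR-200c141, 0.02 with miR-200ba429 and 0.26 with both clusters, where that of all genes was 0.00, −0.01 and 0.00. Between the clusters themselves the largest differences were 0.34 ± 0.18 for TAPBP and 0.32 ± 0.29 for ERAP2, with 95% intervals of −0.06 to 0.75 and −0.31 to 0.95.

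On single arrays the changes were uneven. In MDST8 with both clusters 3 of 10 genes exceeded the control by more than 0.5 (ERAP1 0.96, ERAP2 1.18, NLRC5 1.20), where 11.5% of all genes did, and 0 were lower by as much, where 11.8% were. In NCI-H716 with both clusters ERAP1 alone exceeded it (0.71, against 10.5% of all genes), and 0 were lower by as much (11.3%). In NCI-H716 with miR-200ba429 2 members were lower by over 0.5, PSMB9 (−1.01) and NLRC5 (−0.59), where 6.14% of all genes were, and 0 were higher (5.39%). In HUTU-80 with miR-200ba429 3 were higher, PSMB8 (0.86) and PSMB9 (0.83), both below background, and TAP1 (0.56), where 6.95% of all genes were. On the same array 2 were lower, TAPBP (−0.50) and ERAP2 (−0.87, below background), where 6.03% were. The pair of HUTU-80 arrays with miR-200c141 differed by a median of 0.12 over 9075 genes above background, and by 0.41 at the 95th percentile.

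**Figure D5:**
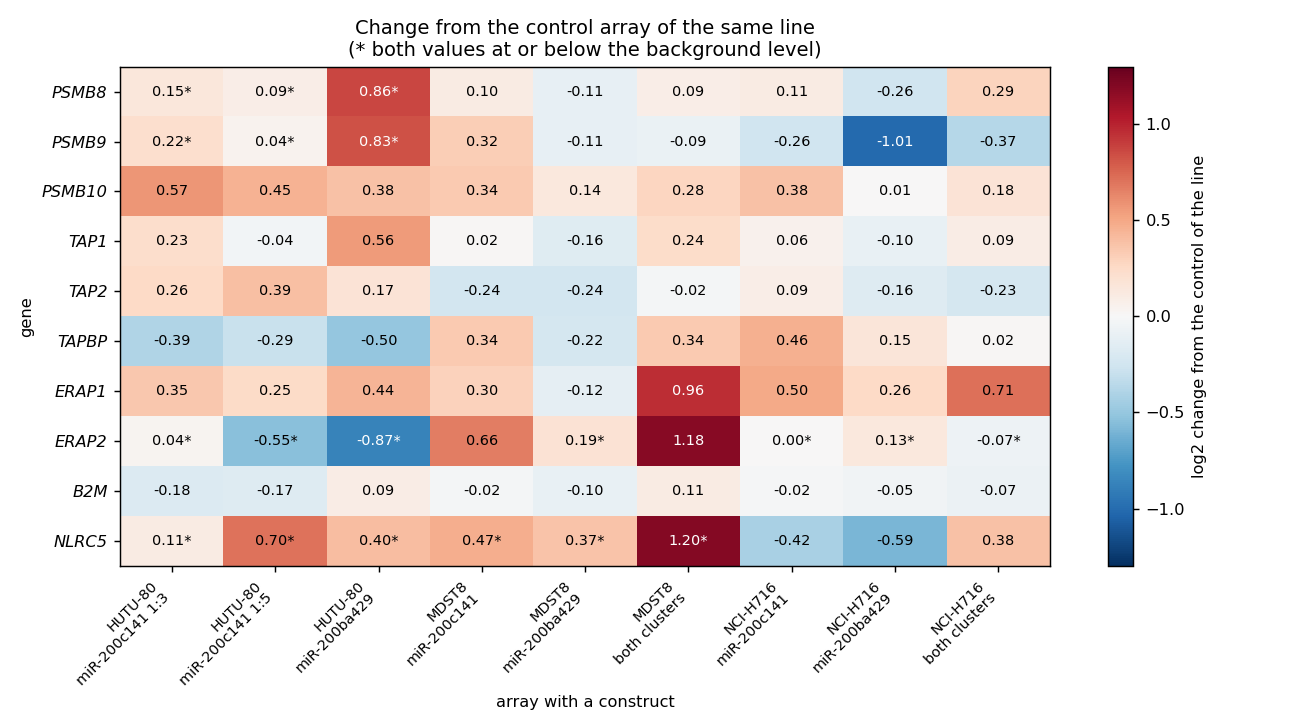
Log2 change from the control array of the same line for each gene (rows) on each array with a construct (columns), printed in each cell and coloured red for higher and blue for lower, with an asterisk where both values were at or below background. The column of MDST8 with both clusters holds 0.96 for ERAP1, 1.18 for ERAP2 and 1.20 for NLRC5, and the row of PSMB10 is positive throughout.

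The arrays with both clusters also differed in a sign of RNA quality. The 3′ minus 5′ signal of ACTB was 2.02 in MDST8 with both clusters against 1.5 to 1.54 on the other MDST8 arrays, and 2.63 in NCI-H716 against 2.33 to 2.40. That of GAPDH was 0.383 against 0.277 to 0.324 and 0.351 against 0.271 to 0.325. The lines differed in it as well: over all arrays ACTB ran from 2.10 to 2.39 in HUTU-80, 1.5 to 2.02 in MDST8 and 2.33 to 2.63 in NCI-H716. The part of RNA quality in the differences between lines and in the ERAP1 and TAP2 results was not tested.

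Other genes of class I peptide handling gave 1 more call with both clusters. TAPBPL, a tapasin-like peptide editor, rose by 1.47 ± 0.31 (adjusted p = 0.0208), where the arrays with both clusters read 5.47 (MDST8) and 6.78 (NCI-H716) and their controls 3.48 and 5.39, the control values being below background. It was 1 of 9 measured genes of loading and trimming to pass (median 0.17), against 6.14% of all genes. None of 6 class I chains (median 0.15), 14 constitutive proteasome genes (0.03) or 5 proteasome regulators (0.13) passed. Of 13 class II genes 1 fell, RFX5, a promoter-binding factor of class I and class II genes, by −0.67 ± 0.16 (adjusted p = 0.0340).

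Of 18 measured genes of interferon signalling none passed with both clusters (median 0.21). Of 42 interferon-stimulated genes 5 rose and 1 fell, against 6.14% of all genes called in either direction (medians 0.26 and 0.00). Here too the clusters and the additional virus cannot be told apart. ISG15, a ubiquitin-like modifier, rose by 1.18 ± 0.20 (adjusted p = 0.00951), SAMD9 by 1.13 ± 0.29 (0.0429), SAMD9L by 1.20 ± 0.30 (0.0403, its NCI-H716 values of 4.10 and 5.25 below background) and DTX3L, a ubiquitin ligase, by 0.71 ± 0.17 (0.0364). IFI27 rose by 1.80 ± 0.20 (0.00119), from 2.88 to 4.58 in MDST8, both below background, and from 3.65, also below it, to 5.63 in NCI-H716. IFIT5 fell by −0.67 ± 0.17 (0.0476). On the single arrays 23 of the 42 were over 0.5 higher in MDST8 with both clusters and 5 lower by as much, against 8 and 6 in NCI-H716. Over all genes the shares higher and lower were 11.5% and 11.8% in MDST8, and 10.5% and 11.3% in NCI-H716. Of the 42 genes, 33 were above background in some sample and 6 on every array. IRF1, an activator of TAP1 and PSMB9, read 7.69 to 8.24 in MDST8, 5.96 to 6.46 in HUTU-80 and 5.78 to 6.37 in NCI-H716. No gene of these lists passed with a single cluster, where 0 of all 19774 genes did.

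After the mean of each line was taken away, the genes most like TAP1 over the 11 samples were TMEM63B (Pearson r = 0.94), SNX14 (0.94), SRA1 (0.93), PRKAA2 (0.93) and EPM2AIP1 (0.93), out of 9372 genes above background on at least 6 arrays. Among the members so compared PSMB8 was nearest to TAP1, at rank 20 (0.90). TAP2 was at rank 3064 (0.29) and TAPBP, the farthest, at rank 5041 (−0.04). For PSMB9 the most alike were EAF1 (0.90), OSBPL9 (0.89), PJA1 (0.89), KLHL9 (0.86) and ENDOD1 (0.86). Its nearest member was PSMB8 at rank 21 (0.78) and its farthest TAPBP at rank 7180 (−0.17). For B2M the most alike were BBX (0.91), ZNF320 (0.91), HLA-B (0.90), POLR3GL (0.89) and FAM200C (0.88). Its nearest member was TAP1 at rank 101 (0.70) and its farthest PSMB10 at rank 6116 (−0.14). The genes named first are the highest of 9372 over 11 samples, so their r is selected to be high. These correlations describe samples that share lines and controls, and the HUTU-80 values of PSMB8 and PSMB9 that enter them are below background.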

How the data were processed

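Biotin-labelled total RNA was hybridised to Affymetrix U133 Plus arrays, whose probe set names show the perfect-match version. The authors deposited log2 intensities made with RMA, per the submitters' processing notes, a method of background correction, quantile normalization and probe summary. The sources used here name no software or version for it. Quantile normalization evens out the arrays at the level of probes, so a shift shared by most genes can be reduced by it. Of 54715 probe sets, 40920 name 1 gene, 864 several and 12931 none, and only the first were used. Symbols were checked through Entrez numbers (40864 matched).

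Genes were tested with limma 3.58.1 in R 4.3.3, with version 1.17.8 of its data.table package, over 11 samples, with group and cell line as fixed terms, a variance trend, two-sided tests and p-values adjusted by Benjamini-Hochberg across 19774 genes (threshold 0.05). The term for line pairs samples of the same line. A fitted change draws on all samples, so it can differ from the mean of the changes from the controls. Residual degrees of freedom were 5. The promoter motifs were shortened to 9 letters after the windows had been searched. The scripts were tested on simulated data. Alternatives changed the probe set, filter, averaging, line term, variance trend, centring, groups fitted and weights, or left out arrays or lines. The fit of each probe set was added after the data were seen. The 10 members are all named. Of the related lists (class I chains, loading and trimming, constitutive proteasome, proteasome regulators, class II, interferon signalling, interferon-stimulated, and markers of colon epithelium, leukocytes, fibroblasts and endothelium), genes past the threshold with a construct are named, and other genes named from them were chosen after their values were seen. None of the leukocyte, fibroblast or endothelial markers passed in a comparison with control. The members and lists were chosen with earlier results of these data known.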

Additional observations from a re-analysis of the deposited data

Results flagged for a closer look

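In 4 genes every sample with a construct moved one way in 1 line and the other way in another. Such a split of signs is not a test, and its share over all genes was not counted. Changes within 1 line share a control array, whose error moves them the same way. The moderated F over lines, which compares the mean change with any construct, passed for none of them (limma, adjusted p = 0.9998).

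TAP2 was higher than the control on the HUTU-80 arrays (0.26, 0.39 and 0.17) and lower on those of MDST8 (−0.24, −0.24 and −0.02), a mean difference of 0.416 on the log2 scale. The dimmer TAP2 probe set did not show it. TAPBP was higher in NCI-H716 (0.46, 0.15 and 0.02) and lower in HUTU-80 (−0.39, −0.29 and −0.50), a mean difference of 0.634. PSMB9 was higher in HUTU-80 and lower in NCI-H716, with a mean difference of 1.03, the HUTU-80 values being below background. ERAP2 was higher in MDST8 and lower in HUTU-80 after the pair of HUTU-80 arrays was averaged, with a mean difference of 1.24, again with HUTU-80 below background. No array stood apart in the 20 groups of 4 samples tested (10 genes in MDST8 and NCI-H716). The 4 samples of a group each differ in construct, and so few values can hide an outlying array, so this search excludes none.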

How the results depend on the processing

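The number of genes called with both clusters, 1214, was 662 with the mean of probe sets, 0 with no term for the cell line, that is without pairing, 679 with no variance trend, 440 with array weights, 19 in a fit of the compared groups alone, 362 without HUTU-80 and 2110 by single probe sets. Leaving out arrays gave 383 to 1680, with 634, 759 and 383 without the control of HUTU-80, MDST8 and NCI-H716 and 477 without the MDST8 array with both clusters. Any construct had 0 calls, 8 without MDST8 and 0 to 4 without single arrays. For miR-200c141 the 0 became 3 with the HUTU-80 pair apart, 4 with weights, 22 without MDST8, 4 in the compared groups alone and 0 to 10 without single arrays. For miR-200ba429 it became 6 without MDST8. The difference of the construct effect between lines had 1 call, 3 with mean probe sets, 14 with the pair apart, 0 with no trend, 2 after centring, 30 with weights, 0 without HUTU-80 or NCI-H716, 4 without MDST8, 10 by probe sets and 0 to 31 without single arrays. Between lines, 8569 for MDST8 against HUTU-80 became 12965 after centring, and by probe sets the counts were 16290, 15357 and 18680 because more features were tested.

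The change of ERAP1 with both clusters turned from 0.87 to −0.00515 with the mean of its probe sets, of which 5 are below background. Over 1890 alternative values of the members, 1756 kept direction and call, 112 changed sign where neither value passed, 16 lost a call, 5 gained one and 1, that of ERAP1, turned. Part of this was fixed beforehand. TAP1, PSMB8, PSMB9, PSMB10 and NLRC5 have 1 probe set each, so the mean of probe sets leaves their changes as they were. Apart from ERAP1 with both clusters, no comparison with a construct had a call to lose. The difference of the construct effect between lines could not be fitted without a control array, the line term and lines could not be dropped from line comparisons, and any construct already uses all groups. Intensities near background limit PSMB8, PSMB9, ERAP2 and NLRC5 in HUTU-80. Each line has 1 control array, whose error enters every change in it.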
